A study of Mus musculus with 9 samples.

Results

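The semaphorins and their receptors, the plexins and neuropilins, were examined in cholinergic nuclei of the adult mouse spinal cord. All matrix features with a symbol of the form Sema3a to Sema7g, Plxna1 to Plxnd4, or Nrp1 or Nrp2 were taken, which gave 31 genes of 21457. They were 20 semaphorins, 9 plexins and 2 neuropilins. The semaphorins fell into 7 genes of class 3, 6 of class 4, 2 of class 5, 4 of class 6 and 1 of class 7. Levels were compared between 3 classes of neuron, between 21 clusters of nuclei and between regions of the cord.

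Semaphorins are guidance proteins that steer growing axons and shape synapses. Class 3 members are secreted and mostly bind neuropilins, which have no large signalling domain of their own and pass the signal on through class A plexins. Classes 4 to 6 are membrane proteins, class 7 is held by a lipid anchor, and these bind plexins directly. In the spinal cord the family is best known for sorting motor axons during development, and several members stay on in adult motor neurons.

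All mice carried Chat-IRES-Cre, which drives Cre from the gene for the acetylcholine-making enzyme, and Sun1-sfGFP, a Cre-dependent green tag on the nuclear envelope, with 1 copy of each. A nucleus was therefore tagged if its cell had expressed Cre at any earlier time. Single nuclei were sorted by the tag from cervical, thoracic and lumbar/sacral cord of 12 mice at 8 weeks of age. Each region gave 3 libraries. Replicate 1 pooled 2 males and 2 females, replicate 2 was 4 males and replicate 3 was 4 females, and the same 4 mice gave all regions of a replicate number. The library was the replicate throughout, and each was a pool of 4 mice.

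The study's own annotation of 34231 nuclei left 16042 cholinergic nuclei, made up of 5054 skeletal motor neurons (MNs), 5613 visceral MNs and 5375 cholinergic interneurons. Skeletal MNs drive muscle, visceral MNs drive autonomic ganglia, and cholinergic interneurons stay within the cord. Levels are in CPM, the corrected counts of a gene per 1000000 corrected counts of the summed nuclei. The median corrected total per nucleus ranged over libraries from 4712 to 16127, with the lowest in lumbar/sacral replicate 1 and the highest in the library labelled cervical replicate 2. Summed markers of microglia reached 4.52 to 118 CPM over the class sums, those of oligodendrocytes 36.5 to 92.5 CPM, and those of astrocytes at most 4.72 CPM. Of 16009 distinct barcodes, 33 occurred in more than 1 library.

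Hox genes, which record position along the cord, went against the labels in 2 libraries. Hoxa9, a gene of thoracic and more caudal cord, stood at 9.04 CPM in skeletal MNs of the library labelled cervical replicate 2, against 0.145 and 0 CPM in the other cervical libraries. It stood at 0.629 CPM in the library labelled thoracic replicate 2, against 11.9 and 15.8 CPM in the other thoracic libraries. The lumbar/sacral libraries alone carried Hoxd11, at 27.2 to 37.3 CPM, with 0 in all others. The main region contrast was therefore lumbar/sacral against the mean of cervical and thoracic. It is given with and without those 2 libraries where it could be fitted.

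The members ranged from genes found in every cluster to genes of 1 or a few. Counts were summed per library and cluster, and the resulting CPM may be followed along 1 gene but not between genes of different length. Of 31 members, 3 stayed under 10 CPM in every cluster (Sema3b, Sema3g and Plxnb3), 16 reached 50 CPM in at least 1 cluster, 8 were at 10 CPM or more in all 21, and Plxna2 alone was at 50 CPM or more in all 21. A specificity index that runs from 0 for an even level to 1 for a single cluster had a median of 0.287 over the 25 members tested, against 0.184 over all 11292 genes tested. Sema4d was the most even member at 0.107 and Sema3f the most uneven at 0.829, and 22 of the 25 lay above the median of all genes.

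**Figure D1:**
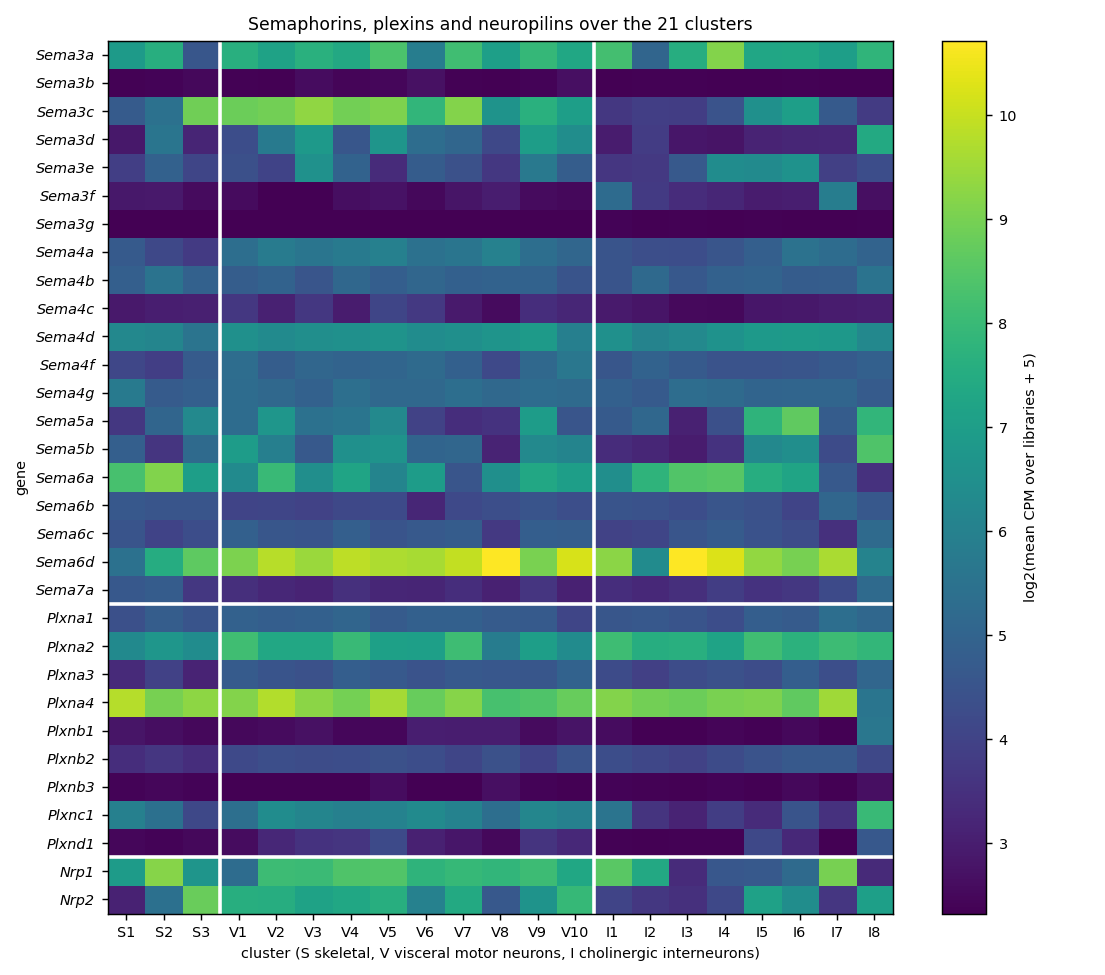
Heatmap of log2(mean CPM + 5) over libraries for each member (rows) in each of the 21 clusters (columns; S skeletal, V visceral, I interneuron). Nrp2 and Sema3c share the column of S3 at 442 and 477 CPM, and Plxnc1 and Sema5b peak in I8 at 252 and 338 CPM.

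The first comparison asked which members separate the 3 classes of cholinergic neuron. A member was called at an adjusted p below 0.05 over all genes (limma, Benjamini-Hochberg) where the change reached 1 on the log2 scale. The classes were drawn from the same nuclei, so these p-values describe how steady a difference was over the 9 libraries. Skeletal MNs differed from the mean of the other classes in 5 of 25 members, with 10.2% of all genes called. Visceral MNs differed in 5 (7.69% of all genes), and interneurons in 4 (6.59%). The other 6 of the 31 members did not pass the filter on low values (Sema3b, Sema3g, Sema4c, Plxnb1, Plxnb3 and Plxnd1). Together 9 members were called, 7 of 17 semaphorins, 1 of 6 plexins and 1 of 2 neuropilins. The median absolute log2 fold change of the 25 members was 0.76, 0.50 and 0.34 in the same order, against 0.24, 0.21 and 0.15 over all genes.

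Nrp2, the receptor chain for Sema3f and Sema3c, was the neuropilin that differed between classes. Its lowest, median and highest library stood at 183, 198 and 247 CPM in skeletal MNs, 61.6, 154 and 225 CPM in visceral MNs, and 34.4, 39.3 and 47.8 CPM in interneurons. No interneuron library reached the lowest motor neuron library, while skeletal and visceral libraries overlapped. These are class sums, and single clusters went against that order. Nrp2 was found in 2.64% of nuclei of skeletal cluster S1 and 66.9% of interneuron cluster I5 (means over libraries). The log2 fold change was 1.42 ± 0.14 (SE, adjusted p = 1.67e-08) for skeletal MNs and -1.92 ± 0.14 (adjusted p = 2.70e-10) for interneurons. Nrp1, the main Sema3a receptor chain, was not called, at means of 232 CPM in both MN classes and 148 CPM in interneurons.

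Among the secreted ligands, the class sums of Sema3c were higher in motor neurons and those of Sema3f in interneurons. Within skeletal MNs Sema3c was high in cluster S3 (477 CPM on average) and low in S1 and S2, as given further on. Interneuron clusters I5 and I6 reached 50 CPM for Sema3c, so the class order does not hold for every cluster. Sema3c lay at 152, 226 and 328 CPM (lowest, median, highest library) in skeletal MNs, 279, 481 and 529 CPM in visceral MNs and 22.4, 37.1 and 42.8 CPM in interneurons. Interneuron libraries sat below all others, with a log2 fold change of -2.98 ± 0.12 (adjusted p = 1.62e-14), and visceral MNs were higher at 2.13 ± 0.12 (adjusted p = 3.65e-12). Sema3f was scarce throughout, at 13.6 CPM on average in interneurons with a range of 7.11 to 20.9 CPM, against 1.51 CPM in skeletal and 1.09 CPM in visceral MNs. Its log2 fold change in interneurons was 1.54 ± 0.08 (adjusted p = 3.61e-13). Sema3d was higher in the visceral class, at 49.9 CPM against 15 and 13.2 CPM in skeletal MNs and interneurons, with a log2 fold change of 1.58 ± 0.18 (adjusted p = 1.01e-07). Sema3a, the classical repellent, was lower in skeletal MNs, at 93.7 CPM against 184 CPM in visceral MNs and 228 CPM in interneurons, with a log2 fold change of -1.18 ± 0.12 (adjusted p = 1.96e-08).

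The membrane-bound ligands Sema6d and Sema4a were lower in skeletal and higher in visceral MNs. Sema6d had 173, 218 and 312 CPM (lowest, median, highest library) in skeletal MNs, 496, 865 and 1348 CPM in visceral MNs and 536, 648 and 921 CPM in interneurons. Every skeletal library lay below every library of the other classes, with a log2 fold change of -1.70 ± 0.10 (adjusted p = 1.20e-12), and visceral MNs were higher at 1.07 ± 0.10 (adjusted p = 3.61e-09). Sema4a averaged 45.3 CPM in visceral MNs, above 21.3 CPM in interneurons and 12.8 CPM in skeletal MNs. Its log2 fold change was 1.22 ± 0.08 (adjusted p = 1.75e-11) in visceral MNs. The skeletal value of -1.05 ± 0.08 (adjusted p = 1.36e-10) came to -1.0 without the library labelled cervical replicate 2 and was then not called. Sema5a, a ligand with thrombospondin repeats, averaged 101 CPM in interneurons, 41.4 ± 44.3 CPM (SD, n = 9) in visceral and 40.7 CPM in skeletal MNs. Its visceral libraries ran from 4.89 to 117 CPM, and the visceral fold change of -1.12 ± 0.28 (adjusted p = 0.00181) was not called without the library labelled cervical replicate 2 (-0.99), thoracic replicate 1 (-0.99) or lumbar/sacral replicate 2 (-0.96).

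With a pseudocount of 20 in place of 5, Sema3f in interneurons (0.65), Sema4a in skeletal and visceral MNs (-0.67 and 0.82) and Sema5a in visceral MNs (-0.75) no longer reached the fold threshold.

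Plxna2 was the only plexin called between classes. This receptor for class 6 semaphorins lay at 86.4 CPM in skeletal MNs with a range of 57.4 to 116 CPM, against 176 CPM in visceral MNs and 222 CPM in interneurons. Its log2 fold change in skeletal MNs was -1.14 ± 0.07 (adjusted p = 1.04e-11). Plxna4, a further class A plexin, averaged 662 CPM (skeletal), 571 CPM (visceral) and 484 CPM (interneurons) and was not called. Sema4d, a ligand of class B plexins, averaged 57.2, 86.9 and 88.7 CPM in that order and was not called either.

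**Figure D2:**
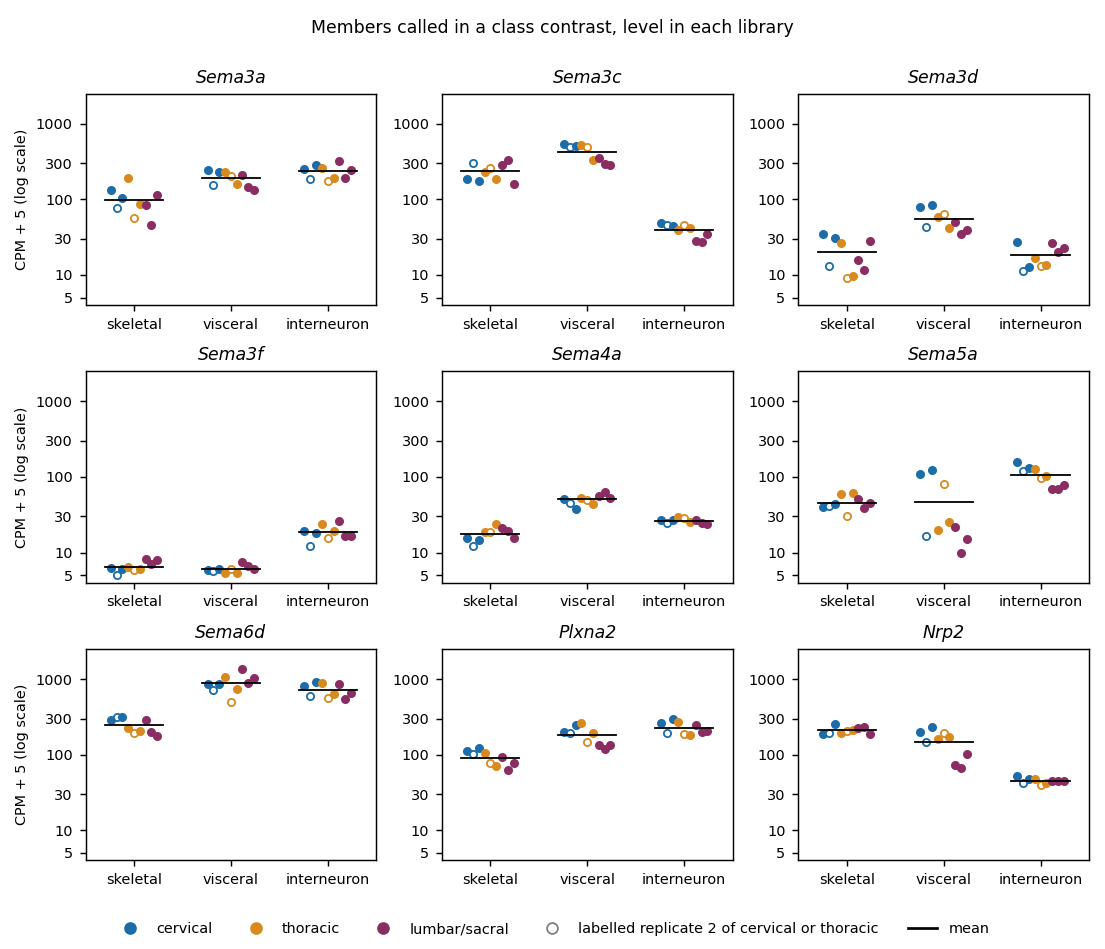
CPM + 5 on a log axis for the 9 members called in a class contrast, 1 dot per library (9 in each class) and a bar at the mean. Sema3c libraries in interneurons (22.4 to 42.8 CPM) lie below all motor neuron libraries, and Sema6d libraries in skeletal MNs (173 to 312 CPM) lie below those of both other classes.

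The members differed further within skeletal MNs, between clusters S1, S2 and S3. Nuclei of S2 carried the study's alpha label in 1283 of 1285 cases, S3 the gamma label in 2241 of 2241 and S1 the type 3 label in 1526 of 1528. Alpha MNs contract the working fibres of a muscle, and gamma MNs set the tension of its stretch sensors. The alpha marker Stk32a was highest in S2 at 352 CPM, the gamma marker Plekhg1 in S3 at 530 CPM and the type 3 marker Gpr149 in S1 at 420 CPM. Of 24 members tested, 7 differed between S1 and S2 (5.23% of all genes), 7 between S1 and S3 (5.33%) and 10 between S2 and S3 (8.12%). Together 11 members were called, 8 of 16 semaphorins, 1 of 6 plexins and 2 of 2 neuropilins.

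The neuropilins split between alpha and gamma clusters. Nrp2 lay at 395, 431 and 532 CPM (lowest, median, highest library) in S3, 8.8, 36.8 and 79.8 CPM in S2 and 0, 2.79 and 9.66 CPM in S1. The lowest S3 library was above every library of S1 and S2, and the log2 fold change of S2 against S3 was -3.65 ± 0.22 (adjusted p = 4.01e-13). Nrp1 ran the other way, at 281, 649 and 770 CPM in S2, 34.3, 112 and 135 CPM in S3 and 87.3, 116 and 164 CPM in S1. No library of S1 or S3 reached the lowest of S2, and the fold change of S2 against S3 was 2.53 ± 0.17 (adjusted p = 6.69e-12). Nrp2 was found in 93.9% of S3 nuclei, 23.8% of S2 nuclei and 2.64% of S1 nuclei (means over libraries). After thinning to 4000 corrected counts, which left out 566 shallower nuclei (21.9% of lumbar/sacral replicate 1 and none elsewhere), they came to 80.3%, 11.7% and 1.49%. Nrp1 was found in 94.1% of S2 nuclei, 50% of S3 nuclei and 53.3% of S1 nuclei, and in 84.3%, 30.1% and 34.3% after thinning.

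The secreted ligands split along the same clusters. Sema3c lay at 342, 489 and 662 CPM in S3, 4.4, 32.9 and 117 CPM in S2 and 12.7, 16.2 and 35.9 CPM in S1. S3 stood apart from both other clusters in every library, with a log2 fold change of -3.70 ± 0.23 for S2 against S3 (adjusted p = 7.90e-13). Sema3a was low in S3, at 9.26, 17.6 and 36.9 CPM, against 96.2, 192 and 315 CPM in S2 and 72, 107 and 234 CPM in S1. The fold change of S2 against S3 was 3.02 ± 0.14 (adjusted p = 3.42e-15), and no S3 library reached an S1 or S2 library. Sema3d was highest in S2 among these clusters, at 13.2, 40.7 and 81 CPM there, with at most 5.95 CPM in S3 and 4.55 CPM in S1.

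Membrane-bound ligands of classes 5 and 6 also differed. Sema6a, a ligand of Plxna2 and Plxna4, had 212, 546 and 830 CPM in S2, 166, 283 and 489 CPM in S1 and 79.8, 129 and 168 CPM in S3, and the fold change of S2 against S3 was 2.04 ± 0.13 (adjusted p = 9.08e-13). S3 and S1 libraries overlapped narrowly, and S2 and S1 libraries broadly. Sema6d rose from S1 (median 30 CPM) through S2 (126 CPM) to S3 (367 CPM), with a fold change of -3.35 ± 0.31 for S1 against S3 (adjusted p = 3.26e-09). Sema5a followed that order with medians of 6.72, 27.8 and 69.8 CPM. Sema5b was lowest in S2 with a median of 5.26 CPM, against 25.1 CPM in S1 and 34.3 CPM in S3. Sema4g was higher in S1 than in S2 at 46.9 against 20 CPM (log2 fold change 1.09), which fell to 0.90 and was not called without the library labelled cervical replicate 2. The receptor Plxnc1, which binds Sema7a, was higher in S1 (median 63.8 CPM) and S2 (35.8 CPM) than in S3 (12.1 CPM), with a fold change of 1.82 ± 0.16 for S1 against S3 (adjusted p = 7.16e-10). A pseudocount of 20 took Sema5a (-0.78), Sema5b (0.74) and Sema4g (0.74) below the threshold for S1 against S2, and Plxnc1 (0.83), Sema5a (-0.95) and Sema5b (-0.98) for S2 against S3.

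**Figure D3:**
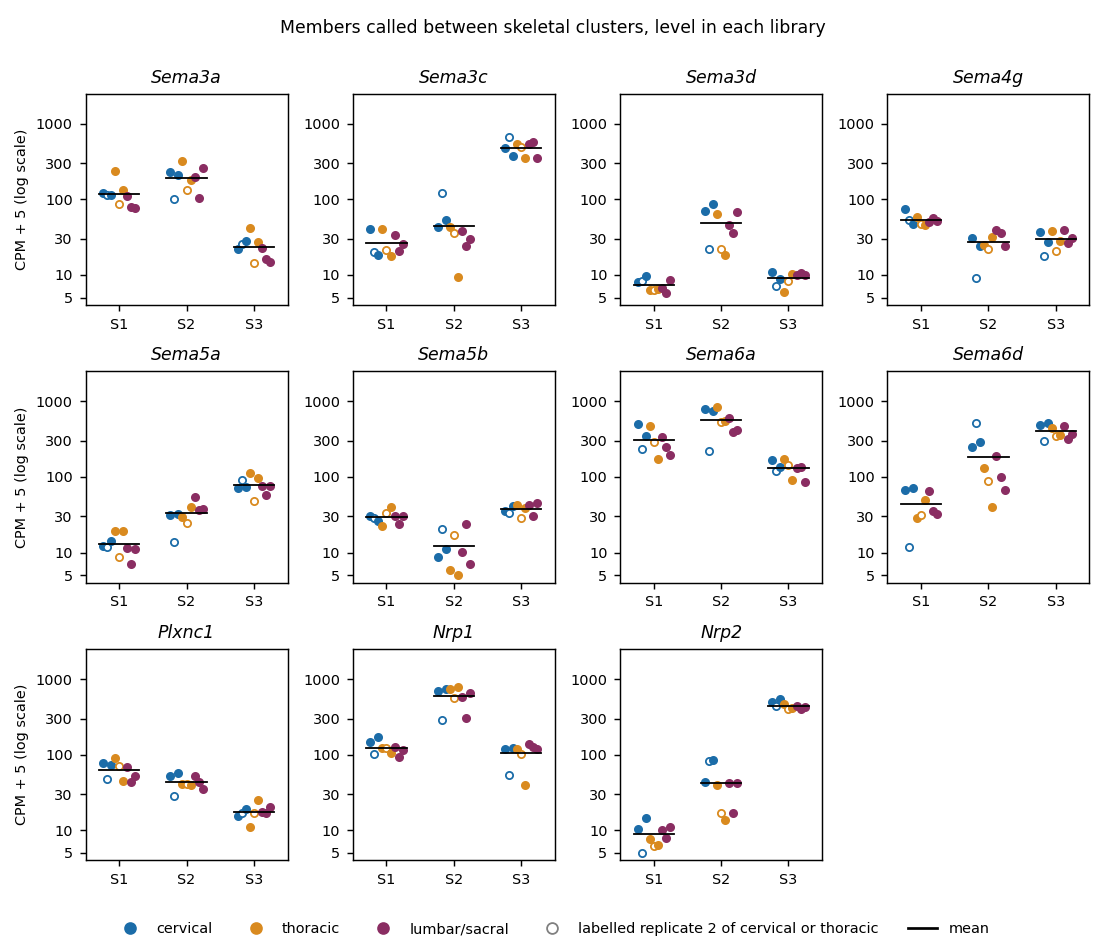
CPM + 5 on a log axis for the 11 members called between skeletal clusters, 1 dot per library (9 in each of S1, S2 and S3) and a bar at the mean. Nrp2 and Sema3c are highest in S3 and Nrp1, Sema3a and Sema6a in S2, with no overlap of S2 and S3 for any of these 5.

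Over the 21 clusters, 10 members had a highest mean of at least 50 CPM and at least 3 times the median of their cluster means. Clusters V5, V6, V8 to V10, I7 and I8 rested on 3 to 8 libraries with at least 10 nuclei, and the others on 9. Values are means ± SD over libraries and carry no test, since the clusters were drawn from the same nuclei. Nrp2 was highest in S3 at 442 ± 45.4 CPM, followed by V10 at 239 ± 56.4 CPM, and was low in V8 at 19.9 ± 9.58 CPM (n = 3), a cluster that only the lumbar/sacral libraries filled. Nrp1 was highest in S2 at 584 ± 182 CPM and I7 at 503 ± 71 CPM, which did not differ beyond their spread. It was near 0 in I3 and I8, at 5.29 ± 6.93 and 4.92 ± 7.39 CPM.

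The secreted ligands peaked in different clusters. Sema3a was highest in I4 at 561 ± 121 CPM, Sema3c in V3 at 637 ± 115 CPM and Sema3d in I8 at 166 ± 49 CPM. Sema3f reached 53.3 ± 26.3 CPM in I7 and 33.4 CPM in I1. Sema3e, which signals through Plxnd1, was similar in I6 (91.8 ± 44.1 CPM), V3 (90.9 ± 77.2 CPM), I4 (79.7 ± 25.2 CPM) and I5 (75.9 ± 32.2 CPM), with V3 libraries running from 18.3 to 206 CPM. Sema5a was highest in I6 at 403 ± 146 CPM, and Sema6a in S2 at 560 ± 204 CPM with only 6.39 CPM in I8. Sema6d, which was high in most clusters, reached 1680 CPM in I3 and 1674 CPM in V8 and fell to 38.5 CPM in S1 and 62.1 CPM in I8.

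Cluster I8 held the top mean of 7 of the 25 members tested in classes (Sema3d, Sema4b, Sema5b, Sema6c, Sema7a, Plxna3 and Plxnc1), with no more than 3 in any other cluster, and of 10.2% of all genes tested. Sema4b (41.3 ± 10.6 CPM, against 40.6 CPM in S2), Sema6c (32 ± 16.8 CPM, against 24.9 CPM in V1), Sema7a (32.6 ± 13.8 CPM, against 22.4 CPM in S2) and Plxna3 (29.5 ± 21.5 CPM, against 26.5 CPM in V10) lay within the spread of the next cluster. Sema5b reached 338 ± 49.8 CPM there against 121 CPM in V1, the next. Plxnc1 reached 252 ± 43.8 CPM, and its lowest I8 library at 208 CPM was above the highest library of any other cluster at 111 CPM. Plxnb1, a Sema4d receptor too low elsewhere to be tested in classes, had 45.1 ± 20.2 CPM with a range of 22.7 to 74.8 CPM. Plxna4 was lowest there, at 43.3 ± 13.9 CPM against 303 to 873 CPM in the other clusters. The cholinergic markers were weak in I8, with Slc5a7 (choline uptake) at 10 CPM and Chat at 97.9 CPM, while Slc6a5 (glycine uptake) stood at 874 CPM and the interneuron marker Mpped2 at 766 CPM. Weak cholinergic markers were not particular to I8. Chat was lower in I7 and I2, at 31.2 and 53 CPM, with Slc5a7 at 17.8 and 37.4 CPM.

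Ligands and their receptors were followed as 13 pairs from textbook knowledge. Both partners reached 50 CPM in 18 clusters for Sema6a with Plxna2 and with Plxna4, in 13 for Sema3a with Nrp1, and in 12 for Sema3c with Nrp2. Plxna2 and Plxna4 reached that level in 21 and 20 clusters, so Sema6a alone set its counts. A shared cluster does not mean that levels ran together. Spearman rho over the clusters was -0.36 for Sema6a with Plxna2, -0.05 for Sema6a with Plxna4 and 0.10 for Sema3a with Nrp1. Of the other 9 pairs, 8 had a partner that stayed under 50 CPM in every cluster and so could not be counted, and Sema3f with Nrp2 shared no cluster at that level. Sema3f reached it in 1 cluster only, I7, where Nrp2 had 7.53 CPM, so that pair could hardly be counted either. The profiles of Sema3c and Nrp2 ran together over the 21 clusters (Spearman rho 0.75), and those of Sema3f and Nrp2 ran apart (rho -0.73). Sema3f reached 10 CPM in only 2 clusters, with a median of 1.93 CPM over the cluster means. Most ranks behind the rho of Sema3f and Nrp2 are thus ranks of values near 0. These are descriptions over clusters that share libraries. The highest Sema3a cluster, I4 at 561 CPM, had Nrp1 at 19.5 CPM, and the highest Nrp1 cluster, S2 at 584 CPM, had Sema3a at 187 CPM. The profiles most like that of Nrp2 among the members were Sema3c (Pearson r 0.80) and Sema5b (r 0.73, rho 0.69).

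Of 37 listed co-receptors and effectors of semaphorin signalling, 28 were tested between classes. The skeletal contrast called 1 higher and 2 lower, the visceral contrast 2 higher and 1 lower, and the interneuron contrast 1 higher and 1 lower. These are 10.7%, 10.7% and 7.14% of the list, against 10.2%, 7.69% and 6.59% of all genes. Mical2, an actin-oxidising effector of plexins, was higher in skeletal MNs at 151 CPM against 24.2 CPM in visceral MNs and 50.8 CPM in interneurons (log2 fold change 1.94). Chl1, a cell adhesion partner of neuropilins, was lower there at 35.4 against 168 and 189 CPM (-2.25), and so was Dpysl5, a collapsin response mediator, at 48.5 against 156 and 116 CPM (-1.41). Met, a receptor kinase that pairs with plexins, was higher in visceral MNs at 26 CPM against 3.11 and 2.43 CPM (1.97). The median absolute log2 fold change of the list in skeletal MNs was 0.27, against 0.24 over all genes.

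The regions were set by the dissection, while each class is a sum of clusters whose mix differed by region. V8 made up 25.8% to 33.4% of the visceral nuclei in lumbar/sacral libraries and at most 0.279% in the others, and V1 made up 3.42% to 6.37% against 14.5% to 22.1%. Between lumbar/sacral cord and the mean of cervical and thoracic cord, 2 of 23 members were called in visceral MNs, both lower, with 4.27% of all genes called. The count was 4 without the library labelled cervical replicate 2 and 1 without lumbar/sacral replicate 1 or 2. In skeletal MNs 0 of 22 were called (0.01% of all genes), also with 0 at an unadjusted p below 0.05, and in interneurons 0 of 24 (0.051%) with 4 at an unadjusted p below 0.05. As labelled, cervical and thoracic libraries differed in no member in any class (0% of all genes called), with 3 skeletal, 0 visceral and 1 interneuron member at an unadjusted p below 0.05. The libraries labelled cervical and thoracic replicate 2 mix the levels here, so this contrast cannot decide whether cervical and thoracic cord differ. Without them no member was called (1 of 9774 genes in skeletal MNs, 0 in the other classes). Then 2 skeletal, 2 visceral and 1 interneuron member had an unadjusted p below 0.05. The contrasts used limma with Benjamini-Hochberg adjustment over all genes and no fold threshold.

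Nrp2 was lower in the sum of visceral MNs from lumbar/sacral cord. The cervical libraries had 192, 142 and 225 CPM in replicates 1 to 3, the thoracic libraries 154, 190 and 164 CPM and the lumbar/sacral libraries 67.5, 61.6 and 96.5 CPM. All 3 lumbar/sacral libraries lay below the other 6, with a log2 fold change of -1.20 ± 0.18 (adjusted p = 0.00514), and -1.24 (adjusted p = 0.00604) without the 2 libraries whose Hox genes went against their labels. In skeletal MNs the same contrast was 0.06 for Nrp2. The level of Nrp2 was 19.9 CPM in V8 and 186 CPM in V1, and the part of the cluster mix in the class value was not separated there. The contrast within clusters is given further on.

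Sema5b was also lower in the visceral sum, with a level of 3.92 CPM in V8 and 121 CPM in V1. It had 52.7, 67.2 and 76 CPM in cervical, 77.5, 60.1 and 78.9 CPM in thoracic and 33.6, 36.2 and 41.8 CPM in lumbar/sacral libraries. The groups did not overlap, with a fold change of -0.80 ± 0.14 (adjusted p = 0.0135), which was not called without lumbar/sacral replicate 1 (-0.73) or replicate 2 (-0.78). Sema3c had 529, 481 and 494 CPM, 512, 483 and 321 CPM and 341, 290 and 279 CPM in the same order. Thoracic replicate 3 lay within the lumbar/sacral range, and the fold change of -0.61 was not called (adjusted p = 0.0684), but was called with the replicate number as a block (adjusted p = 0.0193). With the block 4 members were called (7.35% of all genes), the other addition being Plxna2 (fold change -0.66, adjusted p = 0.0265). In interneurons the block called Sema3e (-0.91, adjusted p = 0.0196) and Sema5a (-0.75, adjusted p = 0.0299), with 0.449% of all genes.

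Sema5a depended on the 2 libraries whose Hox genes went against their labels. In visceral MNs it had 104, 11.4 and 117 CPM in libraries labelled cervical, 14.7, 74.5 and 20.1 CPM in those labelled thoracic and 16.5, 4.89 and 9.95 CPM in lumbar/sacral libraries. The library labelled cervical replicate 2 was thus near the thoracic values, and the library labelled thoracic replicate 2 near the cervical values. The 3 libraries with over 70 CPM were those with Hoxa9 under 1 CPM in skeletal MNs. The cluster mix split the same way. V5 held 198 of 1077, 77 of 374 and 116 of 402 visceral nuclei in cervical replicates 1 and 3 and thoracic replicate 2. It held 5 of 420, 15 of 861 and 1 of 979 in cervical replicate 2 and thoracic replicates 1 and 3. The part of this mix in the Sema5a values was not tested. The Sema5a fold change was -1.62 ± 0.68 (adjusted p = 0.336) with all libraries and -1.78 ± 0.26 (adjusted p = 0.00989) without the 2 libraries whose Hox genes went against their labels. Without them 5 members were called (4.81% of all genes), namely Nrp2, Plxna2, Sema4f, Sema5a and Sema5b. All were lower in lumbar/sacral cord than in the mean of cervical and thoracic cord. For Sema5a that mean was raised by cervical replicates 1 and 3 (104 and 117 CPM). Thoracic replicates 1 and 3 (14.7 and 20.1 CPM) overlapped the lumbar/sacral libraries, so the call does not separate thoracic from lumbar/sacral cord.

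**Figure D4:**
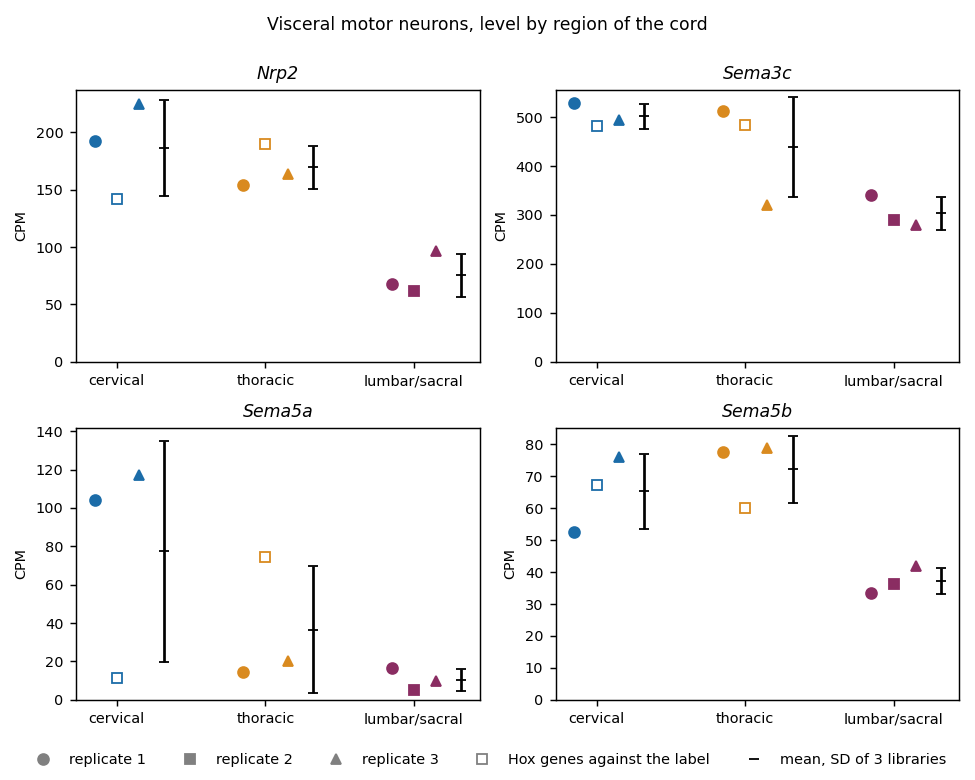
CPM in visceral MNs by region for Nrp2, Sema3c, Sema5a and Sema5b, with a symbol per replicate, open squares for the 2 libraries whose Hox genes went against their labels, and the mean ± SD of 3 libraries. For Nrp2 the lumbar/sacral libraries (61.6 to 96.5 CPM) lie below all others, and for Sema5a the open squares lie apart from the other libraries of their label.

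The same contrast was made within each of 17 clusters (3 skeletal, 7 visceral, 7 interneuron) that had at least 2 libraries of each region. This held the mix of these clusters fixed, but not the mix of finer groups inside a cluster. The paper divides visceral MNs into finer subclusters, most of which it found only or more often in 1 region. Their part in the values was not tested. Of 374 pairs of member and cluster, 10 were called, 7 lower and 3 higher in lumbar/sacral cord, with 1.14% of all pairs of gene and cluster called. Of the 10, 9 lay in visceral clusters and none in skeletal ones, and over all genes 1776 of 1933 called pairs (91.9%) lay in visceral clusters and 7 in skeletal ones. With the replicate block 19 pairs were called (1.42%). Without the 2 libraries whose Hox genes went against their labels 12 pairs were called (0.849%), in the clusters other than V5, which could not be fitted then. Without the library labelled cervical replicate 1 or 3, or lumbar/sacral replicate 1, the count was 6, and without lumbar/sacral replicate 2 it was 3. Omitting cervical replicate 1 or 3, or thoracic replicate 1 or 2, left V5 with too few libraries to be fitted. Omitting lumbar/sacral replicate 1 or 2 did the same for V6. The calls in that cluster then left the count without being tested.

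Nrp2 was lower within 3 visceral clusters. In V2 (3.07% of all genes called) the cervical libraries had 258, 184 and 235 CPM, the thoracic 206, 301 and 232 CPM and the lumbar/sacral 78.7, 44.5 and 88 CPM, with no overlap and a log2 fold change of -1.71 ± 0.23 (adjusted p = 9.37e-04). In V3 (1.55% of all genes) they had 206, 104 and 216 CPM, 152, 228 and 142 CPM and 66.3, 69.1 and 50.9 CPM (fold change -1.38 ± 0.25, adjusted p = 0.0142). The V3 call was lost without any of the lumbar/sacral libraries in turn, at -1.43, -1.46 and -1.25. In V5 (1.38% of all genes), which had no sum for the library labelled cervical replicate 2 or for thoracic replicate 3, cervical libraries had 248 and 319 CPM, thoracic 223 and 237 CPM and lumbar/sacral 78.1, 65.6 and 152 CPM. The fold change there was -1.41 ± 0.27 (adjusted p = 0.0294), and it was not called without lumbar/sacral replicate 1 (-1.30) or replicate 2 (-1.18). The V5 sum of thoracic replicate 1 held 15 nuclei, and the other thoracic sum came from the library labelled thoracic replicate 2. V5 could therefore not be fitted without the 2 libraries whose Hox genes went against their labels.

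Sema5b fell most in V2, where cervical libraries had 78, 85.3 and 96.1 CPM, thoracic 81, 50.2 and 73.3 CPM and lumbar/sacral 19.7, 11.1 and 16 CPM (fold change -2.0 ± 0.24, adjusted p = 4.36e-04). In V4 its fold change was -0.71 ± 0.17 (adjusted p = 0.0455), a call that was lost in every omission of 1 library but that of the library labelled thoracic replicate 2 (-0.63 to -0.75), and without the 2 libraries named above (-0.78). Sema3c fell in V4 (2.74% of all genes called), from 766, 619 and 583 CPM in cervical and 603, 649 and 404 CPM in thoracic to 255, 216 and 284 CPM in lumbar/sacral libraries, which did not overlap with the rest (fold change -1.23 ± 0.19, adjusted p = 0.00312). Sema5a in V5 fell by 2.13 on the log2 scale (adjusted p = 0.0479), a call lost without lumbar/sacral replicate 2 (-1.65) or replicate 3 (-2.17). Without the 2 libraries whose Hox genes went against their labels, V5 could not be fitted. In that setting Sema5a was called lower in V2 (-2.86 ± 0.26, adjusted p = 8.34e-05, with 4.04% of all genes called).

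The 3 higher pairs lay in V3, I2 and V6. Sema6a rose in V3, from 40.8, 27.7 and 59.6 CPM in cervical and 44, 61.5 and 32 CPM in thoracic to 140, 207 and 136 CPM in lumbar/sacral libraries (fold change 1.78 ± 0.26, adjusted p = 0.00419), and the call was lost without lumbar/sacral replicate 2 (1.58). Sema5a rose in I2 (0.511% of all genes called), where cervical libraries had 14.5, 8.22 and 22.6 CPM, thoracic 10.1, 12 and 2.46 CPM and lumbar/sacral 57.3, 85.5 and 58.7 CPM (fold change 2.20 ± 0.33, adjusted p = 0.0118). That call was lost without lumbar/sacral replicate 2 (2.03) or replicate 3 (2.28). Sema3c in V6 had 745 and 293 CPM in lumbar/sacral replicates 1 and 2 against 60.1 to 208 CPM elsewhere (fold change 1.97 ± 0.49, adjusted p = 0.0391). Those sums held only 13 and 10 nuclei, 8.89% of all genes were called in V6, and the call was lost with the replicate block (1.86, with 4.38% of all genes called) and without any cervical library (1.78 to 2.11), thoracic replicate 1 (1.94) or thoracic replicate 3 (1.81).

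**Figure D5:**
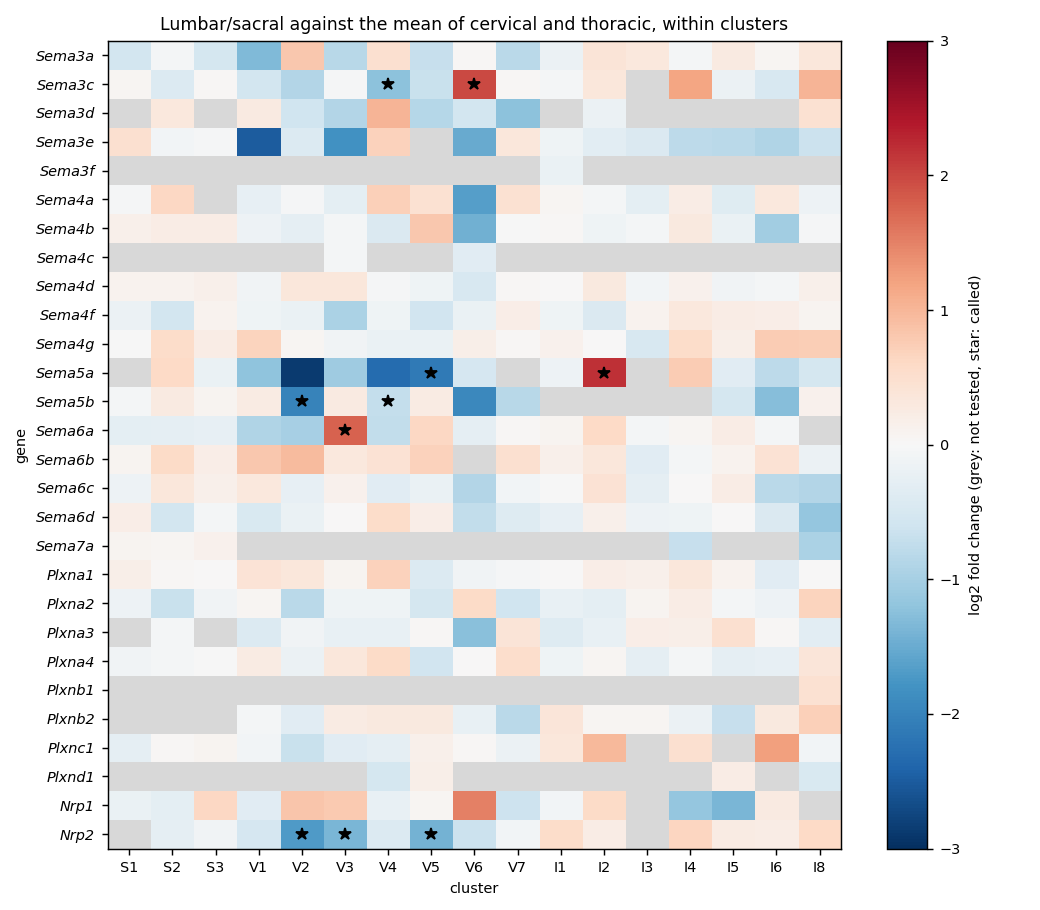
Heatmap of the log2 fold change of lumbar/sacral against the mean of cervical and thoracic libraries for each member (rows) in 17 clusters (columns). Stars mark the 10 called pairs and grey marks members not tested, and Nrp2 is called lower in V2, V3 and V5.

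The 4 members called lower within clusters are shown by their promoters, since these are the regulatory sequences next to genes whose level changed with region. Of these, Sema3c and Sema5a were also called higher, in V6 and I2. Sema6a, called only higher, is not shown. RefSeq sequences on GRCm38.p6 run from 250 bases before to 50 bases after the start of transcription, 5′ to 3′ on the strand of the gene. Capitals mark GGGCGG on either strand, the core of a GC box, with overlapping matches merged.
Nrp2: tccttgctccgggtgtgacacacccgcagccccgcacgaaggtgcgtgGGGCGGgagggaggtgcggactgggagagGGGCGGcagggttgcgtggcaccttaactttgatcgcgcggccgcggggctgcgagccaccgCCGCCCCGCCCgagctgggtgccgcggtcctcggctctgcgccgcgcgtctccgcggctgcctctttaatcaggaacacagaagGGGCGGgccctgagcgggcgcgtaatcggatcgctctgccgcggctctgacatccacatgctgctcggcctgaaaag
Sema3c: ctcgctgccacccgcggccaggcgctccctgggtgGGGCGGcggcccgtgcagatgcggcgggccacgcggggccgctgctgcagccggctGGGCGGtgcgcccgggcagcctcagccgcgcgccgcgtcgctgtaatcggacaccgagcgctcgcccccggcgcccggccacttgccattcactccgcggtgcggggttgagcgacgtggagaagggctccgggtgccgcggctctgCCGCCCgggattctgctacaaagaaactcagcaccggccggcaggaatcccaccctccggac
Sema5a: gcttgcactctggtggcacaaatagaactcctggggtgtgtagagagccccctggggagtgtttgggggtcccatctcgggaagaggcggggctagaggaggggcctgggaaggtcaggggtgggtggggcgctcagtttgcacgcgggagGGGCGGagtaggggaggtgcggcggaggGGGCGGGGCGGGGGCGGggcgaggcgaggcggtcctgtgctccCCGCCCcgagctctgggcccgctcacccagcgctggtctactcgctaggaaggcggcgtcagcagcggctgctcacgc
Sema5b: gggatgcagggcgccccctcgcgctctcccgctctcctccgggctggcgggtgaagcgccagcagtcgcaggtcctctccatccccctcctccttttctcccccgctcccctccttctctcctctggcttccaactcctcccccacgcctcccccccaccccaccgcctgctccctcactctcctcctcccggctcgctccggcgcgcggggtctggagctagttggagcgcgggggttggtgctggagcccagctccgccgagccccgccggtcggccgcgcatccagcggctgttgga

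The Nrp2 window lies at chr1:62703067-62703366, that of Sema3c at chr5:17574566-17574865, that of Sema5a at chr15:32244563-32244862 and that of Sema5b at chr16:35541112-35541411, all on the plus strand. Their GC content was 70.7%, 75.7%, 71.3% and 73%, against a median of 52.7% over 32851 promoter windows. GGGCGG occurred 5 times in Nrp2, 3 times in Sema3c, 5 times in Sema5a and not in Sema5b, and 35.7% of all windows held it. TAATTA, the core letters of many homeodomain sites and its own reverse complement, was in none of the 4 windows and in 5.29% of all windows. The matches are descriptions of letters and were not tested for binding.

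The difference of the region effect between classes was tested within libraries. Between visceral and skeletal MNs, 5 of 21 members differed, with 7.34% of all genes called. Nrp2 differed by -1.26 ± 0.18 (adjusted p = 8.10e-04), Sema5b by -0.89 ± 0.16 (adjusted p = 0.00383) and Sema3c by -0.78 ± 0.22 (adjusted p = 0.0489), all more negative in visceral MNs, as was Sema4f by -0.54, while Sema6d differed by 0.68. The Sema3c call was lost in 10 of 16 alternatives and the Sema4f call in 9 of 16, both with scaling by the median of ratios (-0.71 and -0.49). Between visceral MNs and interneurons, 7 of 23 differed (10.4% of all genes), led by Nrp2 (-1.19 ± 0.15, adjusted p = 1.97e-04), Sema3d (-1.17 ± 0.22, adjusted p = 0.00288) and Plxnc1 (-0.82 ± 0.13, adjusted p = 0.00121). Between skeletal MNs and interneurons 1 of 21 differed (0.62%), Plxnc1 by -0.73 (adjusted p = 0.0324), a call lost in 8 of 16 alternatives. Without the 2 libraries whose Hox genes went against their labels, 7 (8.55%), 11 (12.8%) and 2 (1.13%) members were called. The visceral and skeletal count was 2 without cervical replicate 3 or lumbar/sacral replicate 1, and 3 without cervical replicate 1, thoracic replicate 1 or lumbar/sacral replicate 2. The skeletal and interneuron count was 2 without the library labelled cervical replicate 2 and 0 without cervical replicate 3, any thoracic library, or lumbar/sacral replicate 1 or 2.

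The pathway list was also followed by region. In lumbar/sacral visceral MNs 2 of 28 listed genes were lower and none higher, Rras2 by -0.58 (adjusted p = 0.0434) and Farp1, a regulator of small GTPases downstream of plexins, by -0.53 (adjusted p = 0.0275). That is 7.14% of the list, against 4.27% of all genes. In skeletal MNs and interneurons 0 of 27 were called.

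Male and female pools were compared over the 6 libraries of replicates 2 and 3, with 1 pool of mice per sex, so that sex and pool cannot be told apart. No member was called among the 21 skeletal, 22 visceral and 23 interneuron members tested (0.0725%, 0.0513% and 0.0521% of all genes), with 3, 4 and 4 members at an unadjusted p below 0.05 (limma). The 2 libraries whose Hox genes went against their labels were both of the male pool. The region term followed the labels, no sex fit left out both, and their part in these counts was not tested. Omitting either the library labelled cervical replicate 2 or cervical replicate 3 brought 4 skeletal and 2 interneuron members to a call. Each omission leaves a single cervical library, which the region term takes up. Both are therefore the same comparison, made between the thoracic and lumbar/sacral libraries only. The share of all genes called is not given for it, so these counts are not read as particular to the members. Plxna3, which lies on chromosome X, had 8.04 to 12.7 CPM in male and 19.1 to 23.5 CPM in female pools of visceral MNs, with no overlap, but its fold change of -0.70 ± 0.20 did not pass adjustment (adjusted p = 0.301). The mixed pool was above both at 23.6 to 30.5 CPM. Plxnb2, a Sema4c receptor, likewise stood at 22.5 to 24.9 CPM in visceral MNs of the mixed pool, 5.01 to 12.7 CPM in the male pool and 9.95 to 12.3 CPM in the female pool. Summed microglial markers (3 of 3 genes listed) in visceral MNs ran from 4.52 to 5.98 CPM in the mixed pool, 32.6 to 36.3 CPM in the male pool and 11.8 to 88.6 CPM in the female pool, and their part in these values was not tested.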

How the data were processed

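Nuclei tagged in Chat-IRES-Cre::Sun1-sfGFP cords were sequenced on the 10x platform. Per the labels, reads were processed with Cell Ranger 3.1.0 and Seurat on mm10. The values deposited by the authors, treated here as a score, are SCTransform-corrected counts per nucleus, which even out depth and can add or remove counts in low genes. The study's clusters were used, as the authors deposited them. Doublet handling followed that annotation, and no further caller was run.

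Corrected counts were summed per library and class or cluster (at least 10 nuclei), scaled to CPM, and tested as log2(CPM + 5) where a gene reached 10 CPM in 3 or more sums, using limma 3.58.1 in R 4.3.3 (eBayes with trend) and Benjamini-Hochberg adjustment over all genes, so fold changes of low genes are understated. Class and skeletal cluster contrasts had a library term, sex contrasts a region term. Class sums held 1894447 to 9200835 corrected counts and the 171 cluster sums 61720 to 3133108. The scripts were tested on simulated data. Gene coordinates came from GENCODE M21, and the promoter windows from RefSeq starts, which can differ. The GENCODE start of Sema3c, at 17574281, lies before its window.

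Same-numbered libraries came from the same mice. Their deviations from the region means correlated above 0.1 in 21 of 27 cases (r -0.22 to 0.92), the exceptions all involving cervical replicate 3. The members, gene lists and named genes (those called, those peaking in a cluster, pair partners) were chosen with earlier results of these data known. Alternatives were scaling, pseudocount, filters, the block and left-out libraries. The omission of both libraries whose Hox genes went against their labels was added after seeing the data.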

Additional observations from a re-analysis of the deposited data

Results flagged for a closer look

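In groups of 9 libraries, the gap of the highest or lowest library to its neighbour was compared with Dixon's 95% critical value of 0.493, which chance exceeds in about 1 of 20 groups. It was exceeded in 11 of 127 groups. In 8 of the 11 the library was the one labelled cervical replicate 2, which had the highest median corrected total per nucleus (16127), and always as the lowest. These were Sema4g at 17.7 CPM in skeletal MNs and 3.93 CPM in S2, Sema6b at 7.9 CPM in interneurons and 0 CPM in S2, Plxna1 at 9.87 CPM in interneurons, Sema4b at 9.81 CPM in S2, Sema7a at 0 CPM in S2 and Sema6d at 6.72 CPM in S1. The part of depth in these values was not tested. The other 3 were the highest library, Sema3a at 234 CPM in S1 of thoracic replicate 1, and Sema4g at 68.2 CPM and Sema6c at 31.1 CPM in S1 of cervical replicate 1.

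The lumbar/sacral effect differed between classes for 13 results, by a test of the difference itself on the log2 scale. Visceral minus skeletal MNs gave -1.26 for Nrp2, 0.68 for Sema6d, -0.78 for Sema3c, -0.54 for Sema4f and -0.89 for Sema5b. Visceral MNs minus interneurons gave -1.19 for Nrp2, -0.57 for Plxna2, 0.57 for Sema6d, 0.42 for Sema4a, -1.17 for Sema3d, -0.49 for Sema3a and -0.82 for Plxnc1. Skeletal MNs minus interneurons gave -0.73 for Plxnc1. Of 16 alternatives, 10 lost the call for Sema3c, 9 for Sema4f, 9 for Sema4a and 8 for Plxnc1 between skeletal MNs and interneurons.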

How the results depend on the processing

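Of 63 called values of single members, 39 kept their call under every alternative and none changed sign. Of 982 alternatives, 892 kept the call and 90 lost it. These counts of called members moved by over 1.5 times, and the cause was not tested. The shares of all genes called under these settings are not given, so the shifts are not read as particular to the members. A pseudocount of 1 gave 10 members in skeletal MNs. A pseudocount of 20 gave 3 in visceral MNs, 4 for S1 against S2 and 2 for the difference between skeletal MNs and interneurons. Requiring 10 corrected counts in every sum, which tests fewer genes, gave 1, 2 and 3 members for S1 against S2, S1 against S3 and S2 against S3. For the difference between visceral and skeletal MNs, scaling by the median of ratios gave 3 and no filter on low values gave 2, and no filter gave 0 for skeletal MNs against interneurons.

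With the replicate block, 4 members were called by region in visceral MNs, 2 in interneurons and 19 pairs within clusters, and the only call lost was Sema3c in V6. Without both libraries whose Hox genes went against their labels, region counts in visceral MNs were 5, and the differences of visceral MNs from interneurons and of skeletal MNs from interneurons gave 11 and 2.

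Leaving out 1 library at a time gave 4 to 6 members for skeletal and for visceral MNs, 4 to 4 for interneurons, 6 to 8 for S1 against S2, 7 to 9 for S1 against S3 and 10 to 11 for S2 against S3. It gave 1 to 4 by region in visceral MNs, 0 to 0 in the other region contrasts, 2 to 6, 5 to 9 and 0 to 2 for the differences between visceral and skeletal MNs, visceral MNs and interneurons, and skeletal MNs and interneurons, and 3 to 13 pairs within clusters. By sex it gave 0 to 4 in skeletal MNs, 0 to 2 in interneurons and 0 to 0 in visceral MNs. The counts of pairs within clusters lacked V5 or V6 in the omissions named above for those clusters. The shares of all genes called under the omission of single libraries are not given either. Scaling by the median of ratios moved the median of all genes by at most 0.14 in size, with -0.14 for region in S3 and -0.13 in skeletal MNs (from 0.12 to -0.01).

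The lumbar/sacral libraries of replicates 1 and 3 were the shallowest, and sums of few nuclei set the limit in V6. Genes that did not reach 10 CPM in 3 sums were not tested, and clusters drawn from the same nuclei give no independent test.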
